A study of Mus musculus with 18 samples.

Results

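The 2 mature arms of the mouse miR-22 hairpin, mmu-miR-22-3p and mmu-miR-22-5p, are 2 of the 1251 entries of a microRNA table that covers chronically UV-exposed skin (CHR), papilloma (PAP) and cutaneous squamous cell carcinoma (cuSCC). They were chosen by their levels in these same libraries, which were higher in cuSCC than in PAP, so the step from PAP to cuSCC is given below as a description without a test. The tissues came from 6 female SKH-1E Hairless littermates of an outbred strain that lacks the Hairless gene. All were irradiated repeatedly with low-dose UVB from solar simulators, from 3 months of age, and tissue was collected once irradiation had ended. Each mouse gave 1 CHR, 1 PAP and 1 cuSCC library, so n = 6 for each sample type. CHR was itself irradiated and showed solar damage under the microscope, so no unexposed skin enters any comparison. The lesions were grade 1 or 2 by histology and were judged to be mostly tumour cells, and were sequenced as bulk tissue.

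A microRNA hairpin is cut into a duplex, and one strand, the guide, is usually kept while its partner is degraded. Target messages are recognised mainly through the seed, bases 2 to 8 of the mature strand. miR-22 is conserved across vertebrates and is expressed in many tissues. Its 3p arm is the guide, and among its known targets is the DNA demethylase Tet2. Both growth-promoting and tumour-suppressing roles have been described for it, depending on the tissue.

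The hairpin and both arms are shown because every value below belongs to one of these strands. In GRCm38.p6 the Mir22 hairpin lies on chromosome 11 from 75463716 to 75463810 on the plus strand, inside exon 2 of the non-coding host transcript Mir22hg, an interval that a transcript of Tlcd2 also carries as its exon 2. The arms stand in capitals in the RefSeq hairpin, the 5p arm at bases 19 to 40 and the 3p arm at bases 57 to 78 of 95.
Mir22 hairpin: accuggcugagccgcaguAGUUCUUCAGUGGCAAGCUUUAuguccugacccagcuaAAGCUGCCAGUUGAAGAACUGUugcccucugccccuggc
In the mature arms the capitals mark the seed.
miR-22-3p: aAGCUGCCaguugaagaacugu
miR-22-5p: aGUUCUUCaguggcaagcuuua
Of the 1251 entries, 1011 could be matched by name to a RefSeq mature sequence, and 0 of the others shared a seed with either arm. The closest in sequence to the 3p arm was miR-3966, which lies on chromosome 10 and starts at the 3p arm's second base. It differs by U11C and A14U, counted from the 5′ end of miR-22-3p and shown in capitals.
miR-3966: agcugccagCugUagaacugu
miR-3966 was detected in 0 of the 18 libraries. The 5p arm was at least 8 edits away from every other matched entry. Reads of the 2 arms therefore had no detected near-copy among the matched entries to be shared with.

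Values are log2 ppm of usable reads, quantile normalized between the libraries, so that a value stands for the place of an entry within its library. On the linear scale each library summed to 2348300 to 2358287 ppm, more than shares of 1 read total can reach, so the values are used as relative levels and not as shares of reads. An entry at the bottom of the table, 3.32 (10 ppm before the log), counted as undetected. How low a detected entry could lie differed between libraries. The faintest detected entry was at 3.39 to 5.77 in the CHR libraries, while PAP libraries reached down to 3.71 at best and to 6.83 at worst, and those of cuSCC to between 3.32 and 4.50. Between 163 and 365 entries were detected in a library. The deposited values carry no read totals, and depth is therefore unknown. Of the 18 libraries, 1 lay nearer to another type than to its own, the cuSCC of mouse 10, whose centred profile correlated with PAP libraries at a mean r of 0.408 and with the other cuSCC libraries at -0.120 (across microRNAs, which are not independent). The mean differences of miR-22-3p that use it, its median rank in cuSCC and its Pearson correlations over all libraries are also given without mouse 10. Its cuSCC mean, median and place by size are not.

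miR-22-3p was an abundant microRNA in all 3 tissues and stood at nearly the same level in CHR and PAP. In CHR it ranged from 13.93 to 15.82 log2 ppm with a median of 14.84 (mean 14.85 ± 0.65, SD, n = 6). Its PAP values ran from 14.03 to 15.24 with the same median, 14.84 (mean 14.78 ± 0.44, SD, n = 6). The cuSCC libraries ran from 14.90 to 17.71 with a median of 16.69 (mean 16.66 ± 0.97, SD, n = 6). Of the cuSCC libraries, 5 of 6 lay above every CHR and every PAP library, and only the cuSCC of mouse 9, at 14.90, fell within the range of both. In bulk tissue, more RNA per cell and more cells that carry this microRNA cannot be told apart.

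**Figure D1:**
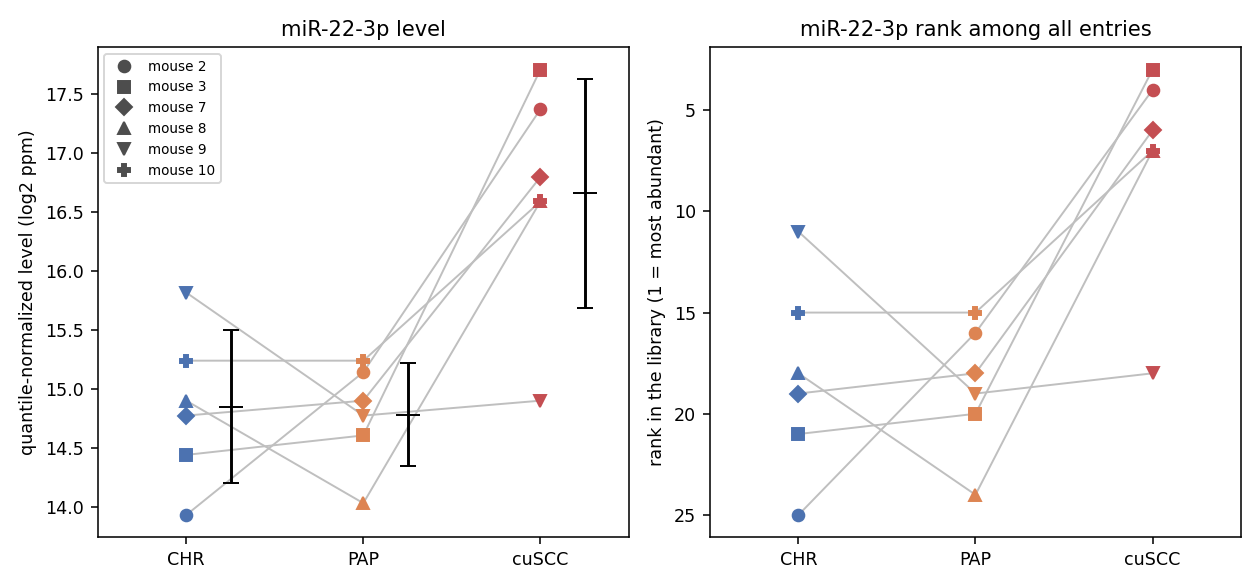
Quantile-normalized level (log2 ppm, left) and rank within the library (right, 1 at the top is the most abundant) of miR-22-3p in CHR, PAP and cuSCC. Symbols are single libraries, grey lines join libraries of the same mouse, and bars are mean ± SD (n = 6). The cuSCC libraries of 5 mice sit between 16.59 and 17.71, above all others, and that of mouse 9 sits at 14.90.

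Between cuSCC and CHR, miR-22-3p rose by 1.81 on the log2 scale, a 3.50-fold difference (standard error 0.45, 95% interval 0.85 to 2.77, limma adjusted p = 0.00600 over 293 microRNAs tested). In this comparison 20.1% of the tested microRNAs were called higher. This comparison uses the same cuSCC libraries as the difference by which the arms were chosen, so it is not independent of that choice. By size, the rise was number 24 among the 293 log2 differences, counted from the largest rise. The arm was higher in cuSCC than in the CHR of the same mouse in 5 of 6 mice, by 1.35 to 3.44, and in mouse 9 it was lower by 0.92 on that scale (difference -0.92). Without mouse 9 the rise was 2.35, and without mouse 10 it was 1.90 (limma adjusted p = 0.000555 and 0.0102). Within mice, with mouse as a replicate block, it passed as well (limma adjusted p = 0.0249).

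Between PAP and CHR, the level of miR-22-3p differed by -0.07 (standard error 0.33, 95% interval -0.79 to 0.65, limma adjusted p = 0.902). It was not called, where 32.4% of the tested microRNAs were called in either direction. This comparison uses the same PAP libraries as the difference by which the arms were chosen, so it is not independent of that choice. The interval covers a fall to 0.579 times and a rise to 1.57 times the CHR level, so changes between these limits are not excluded. The PAP of 3 mice was higher than the CHR of the same mouse, that of 2 was lower and that of mouse 10 was equal. The widest differences were 1.21 in mouse 2 and -1.04 in mouse 9.

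From PAP to cuSCC, the step that chose the arms, the mean of miR-22-3p went up by 1.88 log2 units, or 3.67-fold (standard error 0.43), which was number 26 of the 293 differences by size. The cuSCC value was above the PAP value of the same mouse in 6 of 6 mice. The within-mouse differences were 3.10 in mouse 3, 2.56 in mouse 8, 2.23 in mouse 2, 1.90 in mouse 7, 1.35 in mouse 10 and 0.13 in mouse 9. Those of mice 3 and 9 thus lie far apart, at 8.58-fold and 1.09-fold. Without mouse 10 the mean difference was 1.98.

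The place of miR-22-3p among the other microRNAs of the same library does not depend on how libraries were matched to each other. It ranked between 11th and 25th in CHR (median 18.5), between 15th and 24th in PAP (median 18.5) and between 3rd and 18th in cuSCC (median 6.5). In the cuSCC of mouse 3 it was the third most abundant entry and in that of mouse 2 the fourth, while in mouse 9 its rank was 18. Without mouse 10 the cuSCC median was 6. There were 7 entries that stood above miR-22-3p in every CHR and every PAP library, and 0 that did so in all 18 libraries.

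These 7 were miR-205-5p, a marker of stratified epithelium, miR-191-5p, miR-92a-3p, which shares a cluster with miR-17-5p, miR-125a-5p, miR-30d-5p, and miR-486-5p with its near-identical entry miR-3107-5p, which are typical of red blood cells. miR-205-5p was also above miR-22-3p in 5 of 6 cuSCC libraries, with a median lead of 3.0 in CHR, 3.40 in PAP and 1.24 in cuSCC. miR-191-5p led in 3 of 6 cuSCC libraries, with a median difference that went from 3.13 in CHR and 2.31 in PAP to 0.00 in cuSCC. miR-92a-3p, miR-486-5p and miR-3107-5p each led in 2 of 6. The last 2 had the same median difference to miR-22-3p in every tissue (2.10 in CHR, 3.07 in PAP and -1.26 in cuSCC). They are therefore not counted as separate observations, although both are among the 7 entries. miR-125a-5p and miR-30d-5p led in 1 of 6 each, and their median difference to miR-22-3p was -1.69 and -1.09 in cuSCC, after leads of 2.29 and 1.42 in CHR. Without mouse 10, the counts were 4 of 5 cuSCC libraries for miR-205-5p, 3 of 5 for miR-191-5p and 1 of 5 for each of the others. These orders are a description, as the same cuSCC levels chose the arm.

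**Figure D2:**
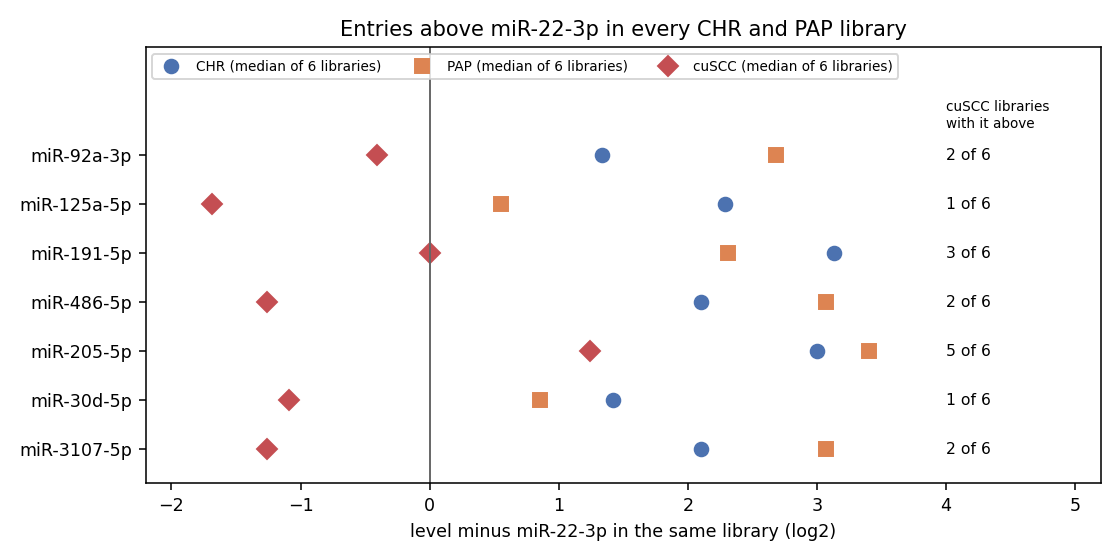
Difference on the log2 scale between each of the 7 entries that stood above miR-22-3p in all CHR and PAP libraries and miR-22-3p in the same library, as medians of 6 libraries per type. The vertical line marks equal levels, and the numbers at the right count the cuSCC libraries in which the entry was still higher. In cuSCC the median lies above the line for miR-205-5p alone, at it for miR-191-5p and below it for the other 5.

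miR-22-5p, the partner strand that is mostly discarded, was low or not detected in every library. It was detected in 5 of 6 cuSCC libraries, in 1 of 6 CHR libraries and in 0 of 6 PAP libraries. The values in cuSCC were 3.89 in mouse 2, 3.42 in mouse 3, 3.64 in mouse 7, 4.48 in mouse 8 and 3.63 in mouse 9, and in mouse 10 it was not detected. The only CHR library that held it was that of mouse 2, at 3.52, where it had the lowest value of all 299 entries detected. In the cuSCC of mouse 2 it stood highest in order, with 100 of the 365 detected entries below it, and in the other 4 cuSCC libraries that held it between 3 and 14 entries were lower. All its values were within 1.16 of the lowest value of the table.

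What a library could show of this arm is limited by its faintest detected entry. The highest value of miR-22-5p, 4.48, was below the lowest detected value of any entry in 5 of 6 PAP libraries, in 1 of 6 CHR libraries and in 1 of 6 cuSCC libraries, that of mouse 10. The median of the 5 detected cuSCC values, 3.64, was below the lowest detected value in all 6 PAP libraries and in 4 of 6 CHR libraries. The PAP of mouse 8, with a lowest detected value of 3.71, was the only one of PAP whose faintest entry was below 4.48.

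**Figure D3:**
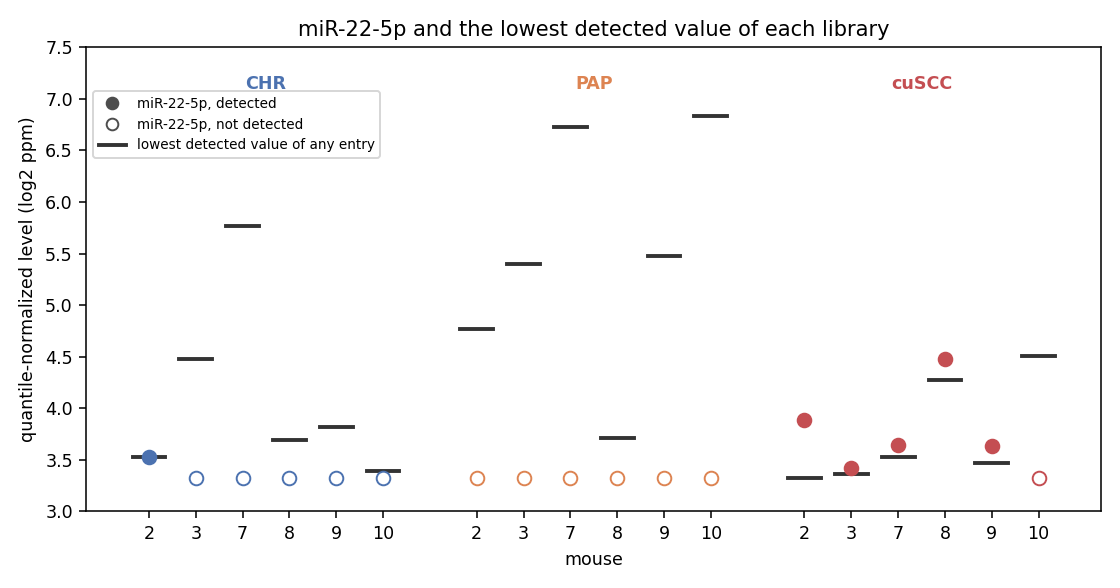
Quantile-normalized level of miR-22-5p (log2 ppm) in each library, ordered by mouse within CHR, PAP and cuSCC. Filled points are detected values, open points stand at the lowest value of the table, and black bars mark the lowest detected value of any entry in that library. In 5 of the 6 PAP libraries the bar is above 4.48, the highest value the arm reached anywhere.

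miR-22-5p entered the test only through the cuSCC libraries, since it was detected in 6 libraries in all and 6 were required. It averaged 3.73 ± 0.42 in cuSCC (SD, n = 6) against 3.36 ± 0.08 for CHR, a difference of 0.38. Because it could be tested only through the group in which it was detected, no p is given for it. From PAP, where all libraries were at 3.32, the mean went up by 0.41, again without a test. Both signs depended on how undetected values were treated. When undetected values were raised to the faintest detected entry of the library, the difference was -0.18 against CHR and -1.56 against PAP. The direction of the 5p arm between PAP and cuSCC was thus not determined by these libraries.

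The 2 arms were separated by a wide margin in every library that held both. In the 5 cuSCC libraries with a detected 5p arm, the 3p value was between 2467 and 19950 times the 5p value on the normalized ppm scale, and in the CHR of mouse 2 it was 1360 times. The difference between arms within a library averaged 12.93 ± 1.07 log2 units in cuSCC, 11.50 ± 0.71 in CHR and 11.46 ± 0.44 in PAP (SD, n = 6). Where the 5p arm was not detected, this difference is only the least it can be if the arm lay under 10 ppm, and it then carries nothing but the 3p level. It was larger by 1.43 in cuSCC than in CHR (1.45 without mouse 10) and differed by -0.03 between PAP and CHR. As the 5p arm was at the lowest value in 12 of the 18 libraries, these differences mostly repeat those of the 3p arm, and no p is given for them. Across the 18 libraries the arms correlated at r = 0.464 (Spearman 0.436), and after each sample type was centred on its mean at -0.0982. Without mouse 10 the correlation was 0.519 (15 libraries). Among the 292 other tested microRNAs, the 5p arm was number 61 by its correlation with the 3p arm.

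The 5 microRNAs whose levels were most like those of miR-22-3p over the 18 libraries are shown so that their seeds can be set beside its own, with the seed in capitals and names as in the table.
miR-126-3p: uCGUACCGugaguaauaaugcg
miR-142-5p: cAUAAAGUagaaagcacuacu
miR-21a-5p: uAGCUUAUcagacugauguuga
miR-322-5p: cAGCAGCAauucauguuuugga
miR-16-5p: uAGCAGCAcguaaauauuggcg
miR-322-5p and miR-16-5p share the seed AGCAGCA, and none of the 5 has that of miR-22-3p, AGCUGCC. All correlations are over libraries that share mice and sample types and are given without a p-value. The 5 were picked for likeness to miR-22-3p in these same libraries, and that arm was chosen by its cuSCC levels. Their differences between tissues, and where their low cuSCC values lie, are therefore not independent of that choice. The p-values given for them below are no separate support.

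miR-126-3p, which endothelial cells express, was the most alike (r = 0.895, Spearman 0.854, and 0.708 within sample types). It was at 8.31 ± 0.48 in CHR, 8.12 ± 0.61 in PAP and 9.71 ± 0.58 in cuSCC (SD, n = 6). Its lowest cuSCC library was that of mouse 9, at 8.79, the same tumour in which miR-22-3p was low. It rose by 1.40 in cuSCC against CHR (limma adjusted p = 0.00493), and its difference in PAP was -0.19 (limma adjusted p = 0.691).

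miR-142-5p, a microRNA of blood-derived cells, followed (r = 0.851, Spearman 0.852, and 0.693 within types). Its mean was 8.59 ± 1.0 in CHR, 7.58 ± 0.60 in PAP and 10.12 ± 0.51 in cuSCC (SD, n = 6). The cuSCC libraries of mice 9 and 10 shared its lowest cuSCC value, 9.52. The rise of 1.53 over CHR passed (limma adjusted p = 0.0132), and the difference of -1.01 in PAP did not (limma adjusted p = 0.113). Of the 4 tested leukocyte markers it was the only 1 called higher in cuSCC than in CHR. Another 2 were called lower, and the median difference of the 4 was -1.23.

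miR-21a-5p, widely raised in carcinomas, correlated at r = 0.814 (Spearman 0.813, and 0.619 within types). Its PAP mean was 13.24 ± 1.0 and its CHR mean 12.09 ± 0.68, a difference of 1.15 that did not pass (limma adjusted p = 0.0800). In cuSCC it reached 15.03 ± 0.53 (SD, n = 6), a rise of 2.94 over CHR that passed (limma adjusted p = 3.73e-05). Its lowest cuSCC value, 14.33, was again in mouse 9.

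The remaining pair belongs to the seed family of miR-15 and miR-16, whose targets include cell cycle genes. miR-322-5p had r = 0.795 (Spearman 0.710, and 0.535 within types), was detected in 13 of 18 libraries and averaged 4.19 ± 1.02 in CHR, 4.14 ± 1.07 in PAP and 6.10 ± 0.83 in cuSCC (SD, n = 6). miR-16-5p had r = 0.793 (Spearman 0.777) and was the most alike once each sample type was centred on its own mean (r = 0.718). It averaged 12.59 ± 0.53 in CHR, 13.24 ± 0.71 in PAP and 13.93 ± 0.49 in cuSCC (SD, n = 6). For all 5, the cuSCC of mouse 9 held the lowest cuSCC value or shared it, which picking them by likeness to miR-22-3p favours. Without the 2 libraries farthest from the median of miR-22-3p, the 5 correlations were 0.900, 0.848, 0.766, 0.717 and 0.814, in the order of the sequences above. Without mouse 10 they were 0.889, 0.879, 0.869, 0.823 and 0.878 (15 libraries), and 4 of the 5 were still among the 5 most alike.

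**Figure D4:**
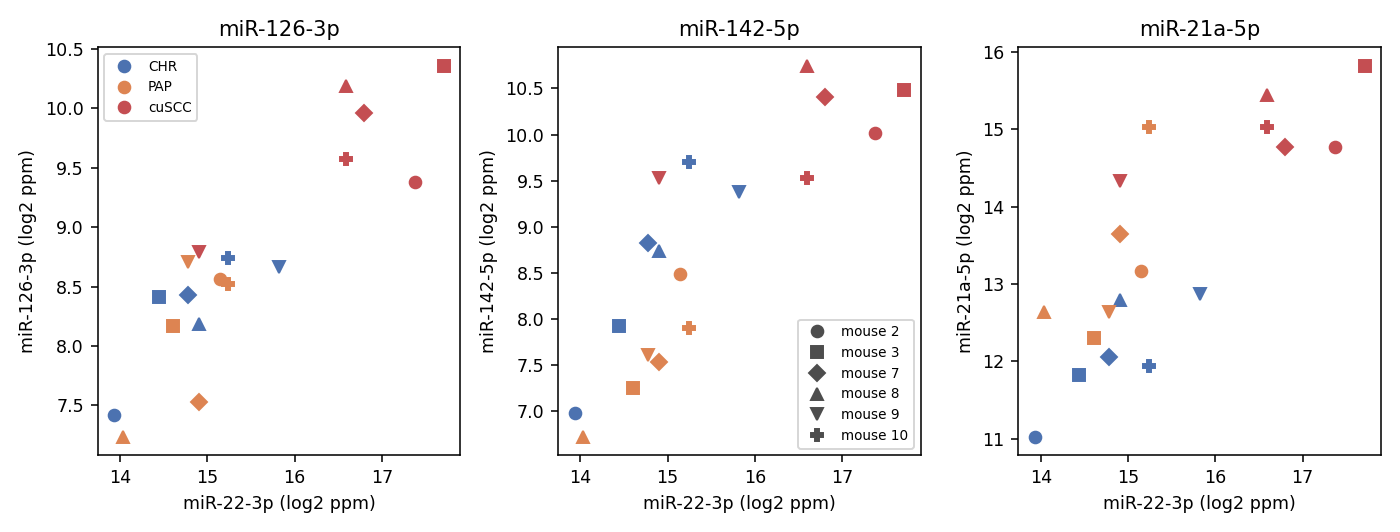
Levels of miR-126-3p, miR-142-5p and miR-21a-5p (log2 ppm, vertical axes) against miR-22-3p (log2 ppm, horizontal axes) in the 18 libraries, coloured by sample type with a symbol for each mouse. The cuSCC libraries of 5 mice lie at the upper right, and that of mouse 9 has 14.90 for miR-22-3p and values of 8.79, 9.52 and 14.33 for the other microRNAs.

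For miR-22-5p the most alike entry was miR-382-5p (r = 0.931, and 0.891 within types), a microRNA of the imprinted Dlk1-Dio3 region. It was detected in 5 of 6 cuSCC, 2 of 6 CHR and 0 of 6 PAP libraries, so that much of the likeness is a shared pattern of detection. miR-1965 (0.766) and miR-1843a-5p (0.744) came next, and miR-101a-3p and miR-101c had identical values (0.679). Without the 2 libraries in which miR-22-5p was farthest from its median, the last 4 dropped to between 0.191 and 0.470, and miR-382-5p stood at 0.925. Without mouse 10, 3 of the 5 were still among the 5 most alike.

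No tested arm of another hairpin near Mir22 was called in either comparison with CHR, but only 3 could be tested. Of all tested microRNAs, 20.1% were called higher and 22.2% lower in cuSCC, and 32.4% in either direction in PAP. The absence of a call in 3 arms therefore says little about the region. Within 1 Mb, Mir132 and Mir212 lie on the same strand 290034 and 290328 bases before it (start to start), and their 3p arms, which share a seed, are shown as the nearest detected neighbours in the genome.
miR-132-3p: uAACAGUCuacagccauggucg
miR-212-3p: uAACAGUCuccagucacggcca
miR-132-3p was at 8.18 ± 0.37 in CHR, 6.92 ± 1.82 in PAP and 8.32 ± 0.84 in cuSCC (SD, n = 6), a difference of 0.14 between cuSCC and CHR (limma adjusted p = 0.780). For miR-212-3p the difference was 0.13 (limma adjusted p = 0.807) and for miR-212-5p 0.56 (limma adjusted p = 0.415). Between PAP and CHR these 3 arms differed by -1.26, -0.23 and -0.53 (limma adjusted p = 0.197, 0.722 and 0.446). miR-132-5p was detected in 2 libraries and miR-3971, on the other side of Mir22, in 0, so neither was tested.

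Beside the counts that follow, 20.1% of all tested microRNAs were called higher and 22.2% lower in cuSCC against CHR, and 14.0% higher and 18.4% lower in PAP. Of 11 microRNAs linked to p53, the tumour suppressor that UV commonly mutates in skin, 9 were tested. In cuSCC against CHR 3 were called higher and 1 lower (median 0.62, against 0.11 for all tested microRNAs), and in PAP 0 higher and 2 lower (median 0.29, against -0.23). miR-15a-5p had the largest rise in cuSCC, by 1.99 (limma adjusted p = 0.00501), and miR-145a-5p, a microRNA of smooth muscle and fibroblasts, the largest fall, with a difference of -1.78 (limma adjusted p = 0.0140). Of 11 microRNAs with known roles in epidermis and hair follicles, all tested, 4 were called higher in cuSCC and 1 lower (median 0.50), and 6 higher and 0 lower in PAP (median 0.96). Without mouse 2 or mouse 3, 1 was called higher in cuSCC, and without mouse 3 or mouse 7, 3 were in PAP. Here miR-31-5p rose by 2.72 in cuSCC and by 3.21 in PAP (limma adjusted p = 0.000189 and 4.89e-05). The lowest difference was that of miR-214-3p, -1.20, which did not pass (limma adjusted p = 0.0954). The 1 called lower was thus another member, with a smaller fall. miR-214-3p is also among the fibroblast and smooth muscle markers below.

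Markers of other cell types moved with the tissues, and their part in the levels of miR-22-3p was not tested. The defining endothelial markers, miR-126-3p and miR-126-5p, were both called higher in cuSCC than in CHR, and 1 of 2 was without mouse 2, 3 or 8. In PAP 0 of 2 were called. Summed, they ranged from 7.84 to 9.35 in CHR, from 7.53 to 9.0 in PAP and from 9.26 to 11.17 in cuSCC, where mouse 9 had the lowest sum. They are the 2 arms of 1 hairpin and not separate markers. miR-126-3p, like miR-142-5p below, was picked for its likeness to miR-22-3p in these same libraries. The calls and sums that hold either, and the low place of mouse 9, are therefore not independent of that choice. Of the leukocyte markers 1 of 4 tested, miR-142-5p, was called higher and 2 lower in cuSCC, and 0 higher and 2 lower in PAP. The higher call was lost without mouse 3, and miR-155-5p was never detected. Their sums ran from 13.12 to 14.28 for CHR, from 8.95 to 11.82 for PAP and from 11.12 to 12.59 for cuSCC (from 11.25 without mouse 10).

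Fibroblast and smooth muscle markers gave sums from 14.30 to 15.06 in CHR, from 11 to 14.04 in PAP and from 12.53 to 15.51 in cuSCC, where the lowest was that of mouse 10 and the other 5 began at 14.41. Of these, 0 of 5 were called higher and 1 lower in cuSCC (2 higher and 1 lower without mouse 10), and 3 were called lower in PAP (1 without mouse 3). Skeletal muscle markers summed to 15.44 to 15.98 in CHR. In cuSCC the sum was 5.16 in mouse 10 and 13.56 to 14.24 in the other 5 libraries, and 3 of 6 PAP libraries held none of them. Of 3 tested, 1 was called lower in cuSCC, a call lost without any of mice 2, 3, 7, 8 and 9, and 3 were called lower in PAP.

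Epithelial markers were high throughout, with sums from 17.50 to 18.51 for CHR, from 17.77 to 18.55 for PAP and from 17.50 to 18.54 for cuSCC. Of their 7 members 3 were called higher in cuSCC, but 0 without mouse 2 or mouse 3, and 4 in PAP, but 2 without mouse 3 or mouse 7. In both, 0 were called lower. Erythroid markers gave sums from 16.69 to 17.84 in CHR and from 16.70 to 18.24 in PAP. In cuSCC 5 libraries lay at 14.86 to 15.92, below every CHR and PAP library, and that of mouse 10 at 17.87. Of 2 tested, 1 was called higher and 1 lower in cuSCC, and the lower call was lost without any of mice 2, 3, 7, 8 and 9. In PAP 1 was called higher and 0 lower, and miR-144-3p was never detected.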

How the data were processed

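Small RNA was sequenced from 18 mouse skin libraries. The authors clipped adapters, removed reads that were too short or had a long run of 1 base at the end, matched the remaining reads to miRBase by BLAST (version not given in the sources used here) and scaled each microRNA to ppm of usable reads. The deposited table holds these on a log2 scale. Quantile normalization and the lowest value of 10 ppm were read from the values themselves. The submitters' processing notes name mm10, which is GRCm38, and RefSeq sequences of that build were used.

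Entries detected in at least 6 libraries (293 of 1251) were fitted with limma 3.58.1 in R 4.3.3, 2 sample types at a time, two-sided, without a block and with Benjamini-Hochberg adjustment over all tested microRNAs. A call is an adjusted p under 0.05. Tests of the 5p arm and exact permutation tests of the difference between arms had been planned, but their p-values are not given, since the 5p arm was undetected in most libraries. Descriptions and plots used Python 3.11.15, numpy 2.4.6, pandas 2.3.3, scipy 1.17.1 and matplotlib 3.10.9. The fits were tested on simulated data with independent normal noise and a fixed shift in some microRNAs. That simulation had no undetected values and no shared mice, so it does not cover these features of the data.

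The arms, lists and alternatives were chosen with earlier results of these data known. Named microRNAs are the arms, the 5 most correlated with each, arms of hairpins within 1 Mb, entries above miR-22-3p in every CHR and PAP library (this last rule was set after seeing values), and from each of the p53 and epidermal lists the largest rise and fall in cuSCC. Libraries with the same number share a mouse, so they are paired. Their deviations from group means correlated at -0.0676 on average between cuSCC and CHR, 0.0250 between PAP and CHR and 0.0582 between cuSCC and PAP. The closing section gives the alternatives: detection filters, all 3 types in 1 fit, mouse as block, centring, treatments of undetected values, other tests and leaving out each mouse. The results of 1 further list are not reported here. All columns of the table were assigned to samples.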

Additional observations from a re-analysis of the deposited data

Results flagged for a closer look

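In the CHR libraries miR-22-5p stood at 3.52 in mouse 2 and at the lowest value of the table, 3.32, in the other 5, so that this 1 library lay apart from the rest of its group by the whole range. With 5 values at the lowest value, any detected value would have stood apart in this way whatever its size. None of the other groups looked at (24 in all, 8 quantities in 3 sample types) had such a library, and in groups whose values vary chance sets about 1 in 20 apart. Ranks and marker sums were not among these quantities, and some of them also lay apart. The skeletal muscle sum was 5.16 in the cuSCC of mouse 10 and 13.56 to 14.24 in the other 5. The rank of miR-22-3p in the cuSCC of mouse 9, 18, was likewise apart from its group.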

How the results depend on the processing

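The rise of miR-22-3p in cuSCC over CHR passed under all 16 alternatives (adjusted p from 0.000555 to 0.0374). Like the difference between PAP and CHR, it shares libraries with the difference that chose the arms. Filters, other tests, the block, the fit of all 3 types and treatments of low values cannot change its size. Only centring and leaving out a mouse could have turned its direction, and neither did. With 1 mouse left out the rise was 1.48 to 2.35. With mouse as a replicate block it was 1.81 (limma adjusted p = 0.0249), and the block changed no other call of a single arm. The difference between PAP and cuSCC ranged from 1.63 to 2.23 with 1 mouse left out. Between PAP and CHR the 3p arm differed by -0.32 to 0.13 with 1 mouse left out and passed in no alternative, and it was positive without mouse 8 (0.09) or mouse 9 (0.13). For miR-22-5p, raising undetected values to the faintest detected entry of the library gave -0.18 in cuSCC against CHR, -1.56 in cuSCC against PAP and 1.37 in PAP against CHR, where nearly all values compared are then those of the faintest entries and not of the arm, and centring each library on its median turned the last to 0.033. With 1 mouse left out its differences were 0.22 to 0.45 and 0.26 to 0.49 against CHR and PAP in cuSCC. The arm is constant when all values under 100 ppm are raised to 100 ppm, is not tested when detection in 12 libraries is required, and does not vary between PAP and CHR without mouse 2, so these give no value. The difference between arms, for which no p is read, was 1.43 in cuSCC against CHR and 1.47 against PAP. Pairing by mouse cannot change these means, as every mouse gave each sample type. With 1 mouse left out the difference ranged from 1.09 to 1.96, from 1.16 to 1.80 and, for PAP against CHR, from -0.32 to 0.17. In PAP against CHR it was -1.44 with undetected values raised in the same way, which again sets the faintest entries against each other. Without 1 mouse, the microRNAs called numbered 77 to 129 in cuSCC against CHR (124 with all mice) and 55 to 79 in PAP against CHR (95 with all), in both the lowest without mouse 3. In PAP against CHR, 41 were called higher and 54 lower, and 63 and 37 with undetected values raised. Of the epidermal list, 4 were called higher in PAP within mice, where 6 were without the pairing. Of the fibroblast and smooth muscle list, all 5 were called lower in PAP with undetected values raised (3 without), and of the skeletal muscle list 1 was (3 without). These list counts were chosen after seeing the data. Of the 5 microRNAs most like miR-22-3p, 3 were also among the top 5 by Spearman correlation and 4 within sample types. Without read totals, what depth would allow for the 5p arm is unknown.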
